A study of Ganoderma lucidum with 6 samples.

Results

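Fatty acid metabolism and peroxisome genes of Ganoderma lucidum were followed by RNA sequencing of wild-type mycelia, with 3 libraries from ammonium sulfate, (NH4)2SO4, and 3 from sodium nitrate, NaNO3, all at day 3. Ganoderma lucidum is a white-rot mushroom of the basidiomycetes used in East Asian medicine. The members were the genes whose KEGG entry names Fatty acid degradation, Fatty acid metabolism, Fatty acid biosynthesis or Peroxisome. Genes that also belong to glycolysis, the citrate cycle, or steroid or terpenoid backbone synthesis were left out, as were 1 acetyl-CoA acetyltransferase and the genes described as superoxide dismutases, catalases, peroxiredoxins, glycolate oxidases, alcohol dehydrogenases or cytochromes P450. This left 65 of the 83 genes in these 4 pathways, out of 16113 genes in the table, and 41 of the 65 carried the Peroxisome pathway without any of the other 3. The labels name neither the strain nor separate cultures for the replicates, so p-values reflect the variation among these libraries only, part or all of which may be technical. The salts differ in sulfate and sodium as well as in nitrogen form, and these cannot be told apart. In RNA from whole mycelia, fewer hyphae that express a gene and less RNA per hypha cannot be told apart either.

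Fatty acid synthesis starts from acetyl-CoA: acetyl-CoA carboxylase makes malonyl-CoA, fatty acid synthase builds the chain from it, and elongases and desaturases of the endoplasmic reticulum lengthen the product and introduce double bonds. Breakdown runs by beta-oxidation, which in many fungi is housed in the peroxisome, and the acetyl-CoA released can be carried onward as carnitine esters. Peroxins are the proteins that build peroxisomes and import enzymes into them. The comparison asks which of these genes differ between cultures on the ammonium salt and on nitrate.

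Total gene counts ranged from 19979528 to 27604895 per library, and 11993 genes passed the filter on low counts, among them all 65 members. Levels are deposited FPKM (fragments per kilobase, scaled to library depth), summarised per group as mean ± SD of 3 libraries. Each log2 fold change sets nitrate against ammonium and is followed by its standard error. A gene is said to have risen or fallen where its Benjamini-Hochberg adjusted p over all tested genes was under 0.05 in edgeR's quasi-likelihood test. The libraries of a group were not alike: on the second principal component, which held 29.9% of the variance, ammonium replicate 1 and nitrate replicate 1 lay at opposite ends. A fit without both of these libraries, chosen after seeing the data, is given where it changes the call of a named member. Its p-values can be too small, since that component was computed from the very data tested.

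On nitrate, acetyl-CoA carboxylase and a large gene of the fatty acid synthase type fell to 0.309 and 0.264 times their mean ammonium FPKM, while a carnitine acyltransferase rose 6.00-fold. Of the 12 members of beta-oxidation 3 fell and 1 rose, and no peroxin gene passed the test. Of the 65 members, 2 rose, 9 fell and 54 did not pass. The share called, 16.9%, was close to the 15.6% of all tested genes. By direction, 3.08% of the members rose against 7.5% of all tested genes, and 13.8% fell against 8.13%. The FPKM of the groups did not overlap in 33 members, or 50.8%, against 37.0% of all tested genes. At an unadjusted p under 0.05, 5 members were higher and 21 lower, where 31.9% of all tested genes were one or the other. The median log2 fold change of the members was -0.21, and that of all tested genes was 0.01. Without ammonium replicate 2 or 3 or nitrate replicate 2 or 3, the number that fell dropped to 2 to 4. The count over all genes varied between fits without 1 library too, as given under the dependence on processing. Without both libraries at the ends of the second component, 6 rose and 27 fell, when the count over all genes itself went from 1874 to 4898. DESeq2 called the same 11 members and 5 more, GL17560-G and GL21566-G higher and GL26059-G, GL31198-G and GL29337-G lower. The count of DESeq2 over all genes is not given here.

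**Figure D1:**
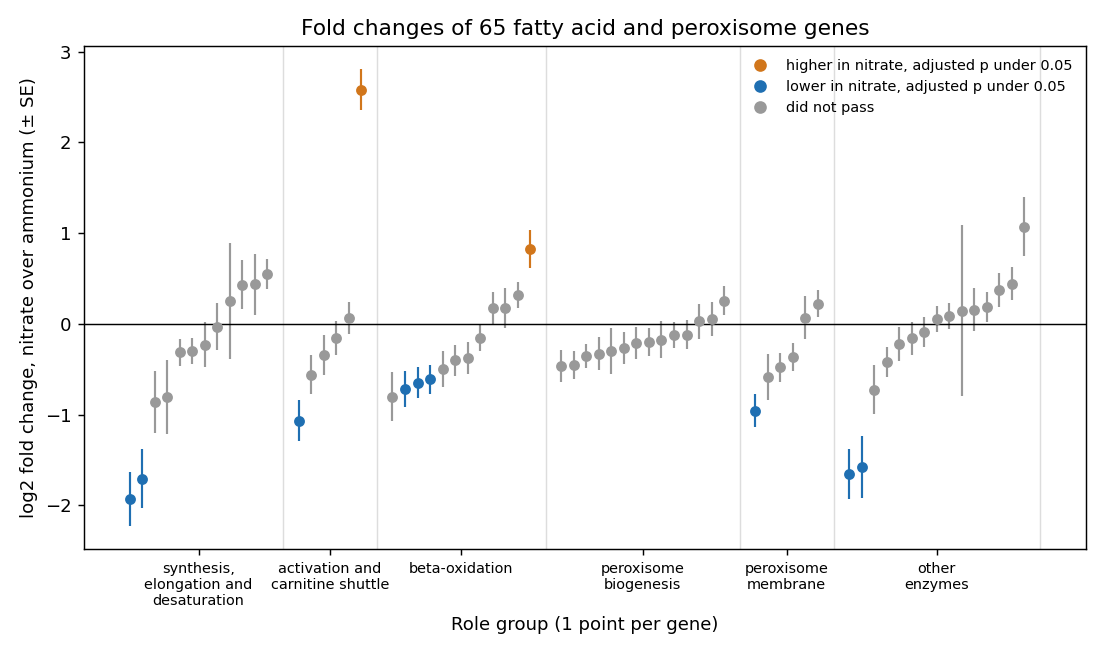
Log2 fold change of nitrate over ammonium with its SE for each of the 65 members (vertical axis), grouped by role (horizontal axis). Orange points rose, blue points fell and grey points did not pass. The highest point is the carnitine acyltransferase GL23438-G, the lowest the fatty acid synthase type gene GL21264-G, and all 14 points of peroxisome biogenesis are grey.

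Among 12 members of synthesis, elongation and desaturation, 2 fell, none rose and 10 did not pass. The share called, 16.7%, was close to the 15.6% of all tested genes. At an unadjusted p under 0.05 there were 1 higher and 3 lower, where 31.9% of all tested genes were one or the other. The median log2 fold change of the role was -0.27. Acetyl-CoA carboxylase, GL21959-G on scaffold 17 at 731551 to 739140, makes malonyl-CoA and is the first committed step. It stood at 29.1, 55.2 and 63.4 FPKM in ammonium replicates 1 to 3 and at 17.7, 15.2 and 12.7 FPKM in nitrate replicates 1 to 3. The groups did not overlap, and ammonium replicate 1 lay well below the other ammonium libraries. The gene fell by 1.71 ± 0.33 on the log2 scale (SE, n = 3 and 3, adjusted p = 0.0139, edgeR). Leaving out ammonium replicate 2, ammonium replicate 3 or nitrate replicate 3 ended the call (adjusted p = 0.0534 to 0.0602).

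The gene with the lowest log2 fold change of all members was GL21264-G, on scaffold 13 at 964620 to 972834, of the class of animal-type fatty acid synthases and related proteins. It was 52.4, 94.4 and 92.4 FPKM in ammonium and 24.8, 19.5 and 18.7 FPKM in nitrate. As with the carboxylase, all nitrate libraries were low and ammonium replicate 1 was the lowest of its group. It fell by 1.93 ± 0.30 on the log2 scale (adjusted p = 0.0062, edgeR) and remained called in each of the 6 fits without 1 library (highest adjusted p = 0.0326). Its class also takes in multidomain enzymes that make other chains from malonyl-CoA. Its GO identifiers include phosphopantetheine binding but neither the fatty acid synthase activity nor the fatty acid synthase complex.

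Those identifiers were carried by a single gene of the table, GL24188-G, which has no KEGG entry and so is no member. It was looked up after values had been seen. GL24188-G is described as a 3-oxoacyl-(acyl-carrier-protein) synthase, the condensing enzyme of chain building, and its model spans 12853 bases of scaffold 32 at 284483 to 297335. Its FPKM were 12.3, 14.8 and 18.9 with ammonium, and 8.93, 9.84 and 7.94 with nitrate, without overlap. Its log2 fold change was -0.80 ± 0.22 (adjusted p = 0.0426, edgeR), and the call was lost in every fit without 1 library other than that without ammonium replicate 1 (adjusted p = 0.0523 to 0.153). With limma on log2(FPKM + 1) its adjusted p was 0.0508. It was lower in nitrate by a smaller factor than the carboxylase or GL21264-G, and the difference between these genes was not tested.

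The other 2 members of the fatty acid synthase class were expressed at low levels. GL21260-G, on scaffold 13 at 805285 to 811852, ranged from 0.649 to 2.05 FPKM over the 6 libraries, and GL21253-G, at 752596 to 755416 on the same scaffold, from 1.11 to 5.47 FPKM. Neither passed (adjusted p = 0.217 and 0.829). GL21260-G fell without ammonium replicate 1 (adjusted p = 0.0263), and both fell without the pair at the ends of the second component (adjusted p = 0.000729 and 0.00367). For GL21253-G that fit turned the log2 fold change from 0.25 to -1.16. Of the libraries left out, ammonium replicate 1 was its lowest of all 6 and nitrate replicate 1 its highest. The models GL21252-G and GL21254-G of the same class flank GL21253-G on the same strand, 30 bases before it and 114 bases after it. GL21252-G was 1.74 ± 1.07 and 2.08 ± 1.48 FPKM and GL21254-G was 9.10 ± 1.13 and 11.7 ± 0.626 FPKM, and neither passed (adjusted p = 0.82 and 0.177).

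Desaturases place double bonds in the finished chains. The abundant desaturase GL25107-G, whose KEGG entry is that of the stearoyl-CoA type, was 344, 694 and 578 FPKM in ammonium and 393, 255 and 244 FPKM in nitrate. The groups overlapped, because ammonium replicate 1 was the lowest and nitrate replicate 1 the highest of its group. Its log2 fold change was -0.87 ± 0.34 (adjusted p = 0.126, edgeR). It passed without ammonium replicate 1 (adjusted p = 0.0351), without nitrate replicate 1 (0.0437), and without both, where it fell by 1.44 on the log2 scale (adjusted p = 6.93e-05). The second desaturase of that KEGG entry, GL18154-G, was higher in nitrate on average, at 21.7 ± 4.52 and 29.7 ± 15.2 FPKM (adjusted p = 0.416). Without both end libraries GL18154-G passed as higher, with a log2 fold change of 0.81 against 0.43 with all 6 libraries (adjusted p = 0.0404). Its nitrate libraries ran from 15.8 to 45.9 FPKM, wider than the ammonium range. The model of GL18154-G overlaps GL26542-G, which fell (adjusted p = 0.0431), and reads in the overlap could not be told apart. The delta 6-fatty acid desaturase type gene GL30263-G was 105 ± 15.4 and 103 ± 27.8 FPKM (adjusted p = 0.952), and without both end libraries its log2 fold change was -0.47 (adjusted p = 0.0294).

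The enzymes that elongate long chains include a condensing elongase, a ketoacyl reductase and an enoyl reductase. The elongase GL30558-G was 199, 297 and 263 FPKM in ammonium and 258, 210 and 182 FPKM in nitrate, with overlap (adjusted p = 0.565). As in the desaturase GL25107-G, ammonium replicate 1 was the lowest and nitrate replicate 1 the highest of its group, and the elongase fell without both end libraries (log2 fold change -0.60, adjusted p = 0.0107). Of 2 genes described as hydroxysteroid dehydrogenases, with KEGG entries in elongation, GL17560-G was higher in nitrate at 26.4 ± 4.18 and 38.9 ± 5.02 FPKM (adjusted p = 0.0563, and 0.0466 without ammonium replicate 1). The other, GL20137-G, was lower at 45.1 ± 1.96 and 36.4 ± 2.01 FPKM (adjusted p = 0.19). In both genes the groups did not overlap, and without both end libraries GL17560-G passed as higher (adjusted p = 0.00606) and GL20137-G as lower (0.0409). The enoyl reductase of elongation, GL25919-G, was 35.8 ± 2.95 and 27.7 ± 0.435 FPKM (adjusted p = 0.19). GL21676-G, a dehydrogenase with the KEGG entry of the mitochondrial enoyl reductase, was 18.8 ± 5.75 and 25.6 ± 8.27 FPKM (adjusted p = 0.314). Its log2 fold change went from 0.43 to 0.85 without both end libraries, where it passed (adjusted p = 0.00452). The models of GL25919-G and GL21676-G each overlap another gene model.

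**Figure D2:**
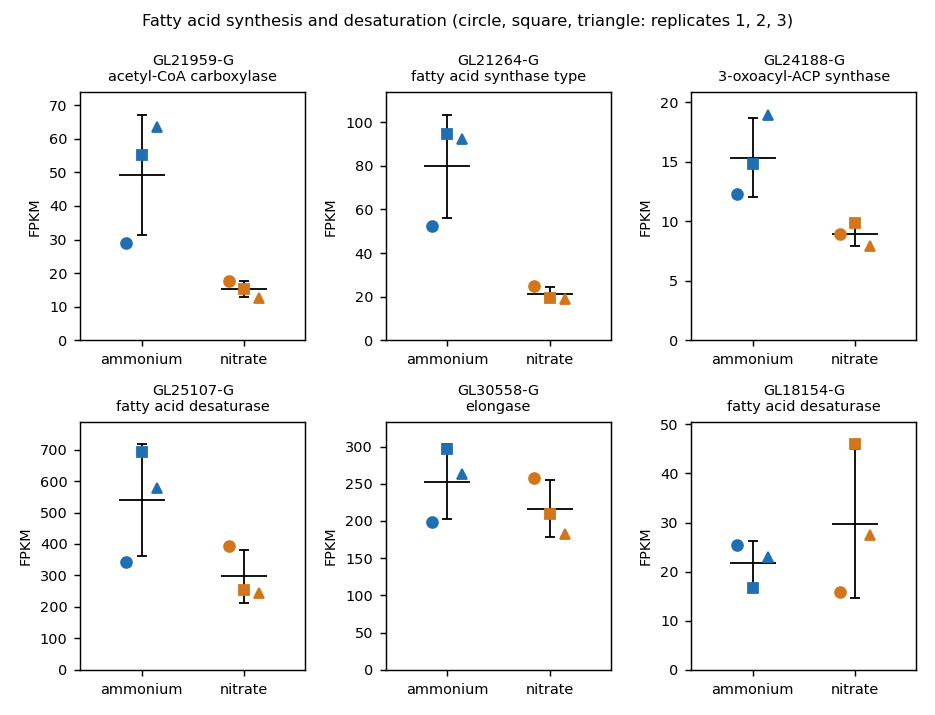
FPKM in each library (vertical axes, from 0) for 6 genes of fatty acid synthesis and desaturation, with ammonium in blue, nitrate in orange, and bars for the mean ± SD of 3 libraries. Ammonium replicate 1 (circle) is the lowest ammonium library in 5 of the panels, and the groups are apart in the 3 upper panels.

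Among the 6 members of activation and the carnitine shuttle, 1 rose, 1 fell and 4 did not pass, where 15.6% of all tested genes were called. Carnitine acyltransferases move acetyl or acyl groups between CoA and carnitine, so that they can cross organelle membranes. GL23438-G, of the CPT2/YAT1 class, lies on scaffold 27 at 262826 to 265935. It was 3.43, 3.33 and 3.02 FPKM in ammonium and 23.6, 14.9 and 20.2 FPKM in nitrate. The lowest nitrate library was 4.34 times the highest ammonium library, and the ammonium libraries were close together. The log2 fold change was 2.58 ± 0.23 (SE, n = 3 and 3, adjusted p = 0.000689, edgeR), the highest of all members. The call held in each of the 6 fits without 1 library (highest adjusted p = 0.00715), under DESeq2, limma and the replicate block.

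The 3 genes of the CRAT class, named for carnitine acetyltransferase, did not rise. GL22955-G, on scaffold 22 at 766351 to 768646, was 53.7, 70.9 and 70.3 FPKM in ammonium and 35.7, 33.4 and 24.5 FPKM in nitrate, without overlap. It fell by 1.07 ± 0.23 on the log2 scale (adjusted p = 0.0205, edgeR). The call was kept without either replicate 1 and lost without any other library (adjusted p = 0.0546 to 0.0779). Its model overlaps GL23023-G, a RhoGEF gene with 25.0 ± 1.90 FPKM on ammonium and 25.5 ± 2.86 FPKM on nitrate, and reads in the overlap could not be told apart. GL23796-G, the most abundant member of the role, was 239, 250 and 249 FPKM in ammonium and 213, 262 and 191 FPKM in nitrate, with overlap (adjusted p = 0.615). GL20271-G, with the KEGG entry of carnitine palmitoyltransferase, was 19.2 ± 3.66 and 13.1 ± 1.87 FPKM (adjusted p = 0.116, and 0.00412 without both end libraries). On nitrate, GL23438-G thus came above GL20271-G in FPKM in every library and stayed below GL22955-G and GL23796-G.

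Acyl-CoA synthetases activate free fatty acids by joining them to CoA. The long-chain synthetase GL23589-G was 92.1 ± 12.8 and 73.2 ± 13.7 FPKM (adjusted p = 0.315), and the synthetase GL23180-G was 89.3 ± 5.28 and 93.9 ± 6.81 FPKM (adjusted p = 0.835). Both overlapped between the groups. The log2 fold change of GL23180-G, 0.07 ± 0.18, changed sign without ammonium replicate 1 or nitrate replicate 1. GL23589-G passed without both of these libraries (log2 fold change -0.52, adjusted p = 0.0455).

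Of the 12 members of beta-oxidation, 1 rose, 3 fell and 8 did not pass, and the median log2 fold change was -0.39. Over all tested genes 15.6% were called, 7.5% as higher and 8.13% as lower. The groups did not overlap in 10 of the 12 members, where 37.0% of all tested genes had no overlap. At an unadjusted p under 0.05, 1 member was higher and 6 were lower, where 31.9% of all tested genes were one or the other. Each of the 4 calls was lost when some single libraries were left out, and those of GL30200-G and GL30454-G when any single library was (adjusted p = 0.0578 to 0.119 and 0.0623 to 0.13). In TPM, a measure scaled to the same total in each library, these 12 genes summed to 3266, 3156 and 2884 in ammonium. In nitrate they summed to 2425, 2589 and 2193. The thiolase GL23502-G, which did not pass, weighed most in these sums. It averaged 1317 FPKM over the 6 libraries, and the next most abundant, GL30200-G, 149 FPKM. Sums of the roles did not all go this way. That of the other enzymes was 4409 to 5046 in ammonium and 5752 to 6285 in nitrate.

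Beta-oxidation begins with an acyl-CoA oxidase in peroxisomes or an acyl-CoA dehydrogenase in mitochondria. The acyl-CoA oxidase GL23176-G was 29.4, 36.0 and 38.6 FPKM in ammonium and 47.4, 37.4 and 32.7 FPKM in nitrate, with overlap (adjusted p = 0.637). The short-chain acyl-CoA dehydrogenase GL26761-G was 163, 182 and 177 FPKM in ammonium and 103, 128 and 88.2 FPKM in nitrate, without overlap. It fell by 0.72 ± 0.20 on the log2 scale (adjusted p = 0.0437, edgeR), a call kept without ammonium replicate 1 and lost without each of the other 5 libraries (adjusted p = 0.0545 to 0.156).

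The next steps hydrate, oxidize and cleave the chain. The enoyl-CoA hydratase GL27016-G was 60.4 ± 2.01 and 68.3 ± 9.39 FPKM, and the 3-hydroxyacyl-CoA dehydrogenase GL24433-G was 56.1 ± 4.00 and 50.6 ± 2.23 FPKM (adjusted p = 0.558 and 0.518). The peroxisomal multifunctional protein GL26059-G is of a class that combines the hydration and oxidation steps. It was 83.4, 121 and 116 FPKM in ammonium and 75.7, 61.7 and 46.5 FPKM in nitrate. Its groups did not overlap, ammonium replicate 1 and nitrate replicate 1 were nearest to each other, and it did not pass (adjusted p = 0.083). It fell without ammonium replicate 1 (adjusted p = 0.0383), without nitrate replicate 1 (0.0325) and without both (log2 fold change -1.21, adjusted p = 0.000286). The 3-oxoacyl CoA thiolase GL23502-G, which releases acetyl-CoA, was 1809, 1544 and 1263 FPKM in ammonium and 1024, 1258 and 1005 FPKM in nitrate. The groups were separated by a narrow gap, and the log2 fold change of -0.50 ± 0.20 did not pass (adjusted p = 0.135). The thiolase of the SCP2 type, GL30454-G, averaged 33.7 ± 5.24 FPKM in ammonium, fell to 21.7 ± 3.29 FPKM, and had a log2 fold change of -0.65 ± 0.17 (adjusted p = 0.0366, edgeR).

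Auxiliary enzymes of beta-oxidation deal with double bonds, branches and the release of free acids. The acyl-CoA thioesterase GL30200-G, which splits acyl-CoA, was 193, 171 and 173 FPKM in ammonium and 105, 123 and 126 FPKM in nitrate, without overlap. It fell by 0.61 ± 0.16 on the log2 scale (adjusted p = 0.0349, edgeR). Its model overlaps the ribosomal protein gene GL29895-G, at 162 ± 48.4 and 99.1 ± 9.35 FPKM, and reads in the overlap could not be told apart. The enoyl-CoA isomerase GL30426-G was 31.4 ± 1.73 and 39.4 ± 1.30 FPKM, and the dienoyl-CoA reductase type gene GL30303-G was 160 ± 30.1 and 124 ± 4.47 FPKM (adjusted p = 0.177 and 0.192). Neither overlapped between the groups, and GL30303-G fell without both end libraries (adjusted p = 0.0475). The racemase type gene GL17889-G, whose class acts on methyl branches, was 10.4 ± 0.356 and 7.94 ± 0.681 FPKM (adjusted p = 0.141).

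The member of this role that rose was GL30293-G, described as an acyl-CoA-binding protein, a carrier of acyl-CoA esters, with the KEGG entry of an enoyl-CoA isomerase. It was 129, 88.7 and 77.1 FPKM in ammonium, against 139, 182 and 205 FPKM in nitrate. Both replicates 1 lay near the gap between the groups. The log2 fold change was 0.82 ± 0.21 (adjusted p = 0.0368, edgeR), and the call held without either replicate 1 and was lost without any other library (adjusted p = 0.0985 to 0.134). With limma on log2(FPKM + 1) it missed the threshold (adjusted p = 0.0591), as did GL30454-G (0.0702).

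**Figure D3:**
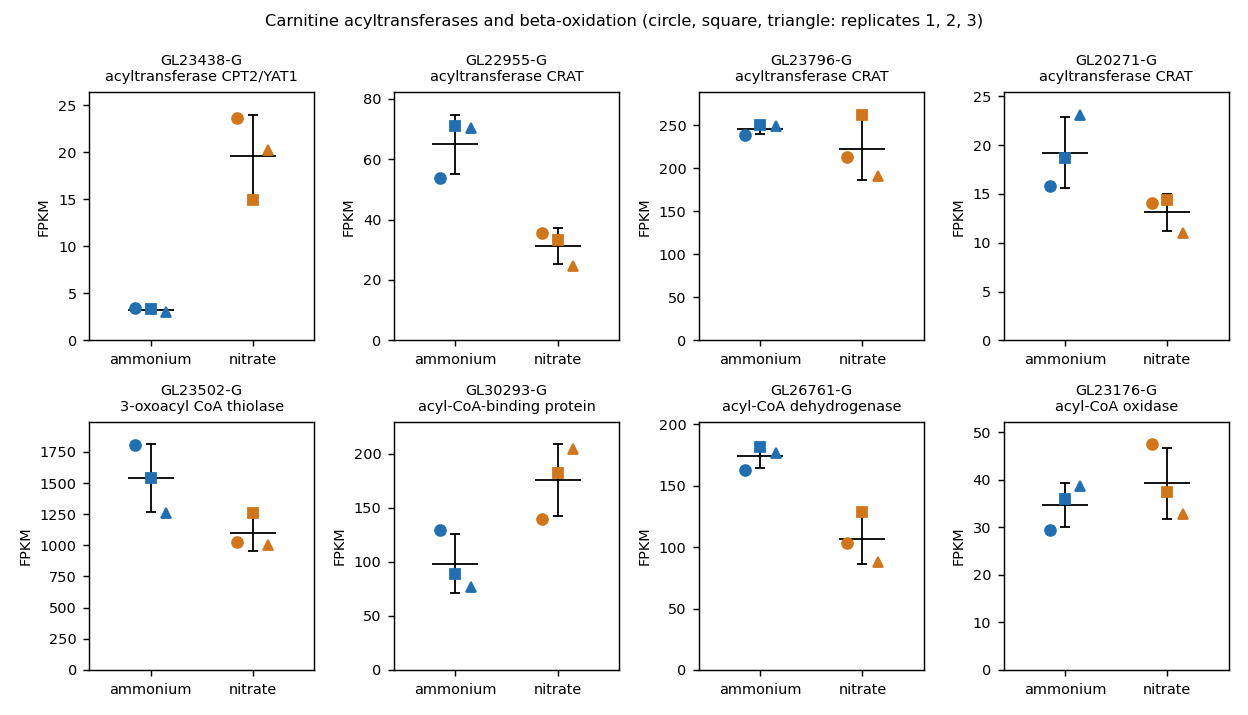
FPKM in each library (vertical axes, from 0) for 4 carnitine acyltransferases (upper row) and 4 members of beta-oxidation (lower row), with ammonium in blue, nitrate in orange, and bars for the mean ± SD of 3 libraries. GL23438-G goes from about 3 to between 14.9 and 23.6 FPKM, while the 3 CRAT class genes do not rise.

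None of the 14 peroxisome biogenesis genes passed the edgeR test, against 15.6% of all tested genes. At an unadjusted p under 0.05, 3 were lower and none was higher, where 31.9% of all tested genes were one or the other. DESeq2 called GL29337-G alone (adjusted p = 0.0464), and its count over all genes is not given here. The fit without both end libraries called 4 lower, and it called many more genes over the whole table too, as given above. Log2 fold changes were below 0 in 11 and above 0 in 3, ran from -0.47 to 0.26, and had a median of -0.21. The groups did not overlap in 5 of the 14, or 35.7%, close to the 37.0% of all tested genes.

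RING-type ubiquitin ligases act in recycling the import receptor, and the genes with the KEGG entries of PEX10 and PEX2 belong to them. GL29337-G, the PEX10 type gene, was 21.2, 20.7 and 20.2 FPKM in ammonium and 13.3, 16.9 and 15.6 FPKM in nitrate (adjusted p = 0.083). GL31165-G, the PEX2 type gene, was 46.1, 45.9 and 47.1 FPKM in ammonium and 33.8, 38.0 and 38.1 FPKM in nitrate (adjusted p = 0.119). In both the ammonium libraries were tightly grouped and all above the nitrate ones, with log2 fold changes of -0.45 ± 0.15 and -0.35 ± 0.14.

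Import receptors bind enzymes by their targeting signals. Of 2 genes with the PEX5 entry, GL25460-G was 19.7 ± 2.20 and 14.4 ± 1.67 FPKM (adjusted p = 0.111, and 0.014 without both end libraries). GL23443-G was 14.4 ± 3.06 and 12.0 ± 0.632 FPKM (adjusted p = 0.342). The receptor for the second type of signal, GL24947-G (PEX7), was 15.4 ± 3.59 and 15.8 ± 2.07 FPKM. The docking proteins GL30312-G (PEX14) and GL21216-G (PEX13) had log2 fold changes of -0.12 ± 0.16 and 0.06 ± 0.19. The AAA-type ATPase GL20802-G (PEX6), which acts in pulling the receptor back out of the membrane, had a log2 fold change of -0.21 ± 0.18 (adjusted p = 0.448), and of -0.44 without both end libraries (adjusted p = 0.03).

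Among the factors that form the membrane, GL20636-G (PEX3) was 98.4, 137 and 120 FPKM in ammonium and 121, 93.3 and 75.7 FPKM in nitrate. Its groups overlapped through both replicates 1 (adjusted p = 0.469, and 0.00629 without them), and its model overlaps GL20552-G. GL29970-G (PEX16) was 102, 112 and 131 FPKM in ammonium and 91.1, 100 and 85.3 FPKM in nitrate, just without overlap (adjusted p = 0.255, and 0.0318 without both replicates 1). GL21179-G (PEX19) was 47.9 ± 3.80 and 44.2 ± 2.55 FPKM (adjusted p = 0.615). The peroxin with the highest FPKM, GL30220-G of the PEX11 type, a family tied to peroxisome division, was the one whose nitrate libraries all lay above the ammonium ones. It was 142, 146 and 148 FPKM in ammonium and 176, 185 and 163 FPKM in nitrate (its log2 fold change was 0.26 ± 0.16, adjusted p = 0.318), and its model overlaps GL30490-G.

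**Figure D4:**
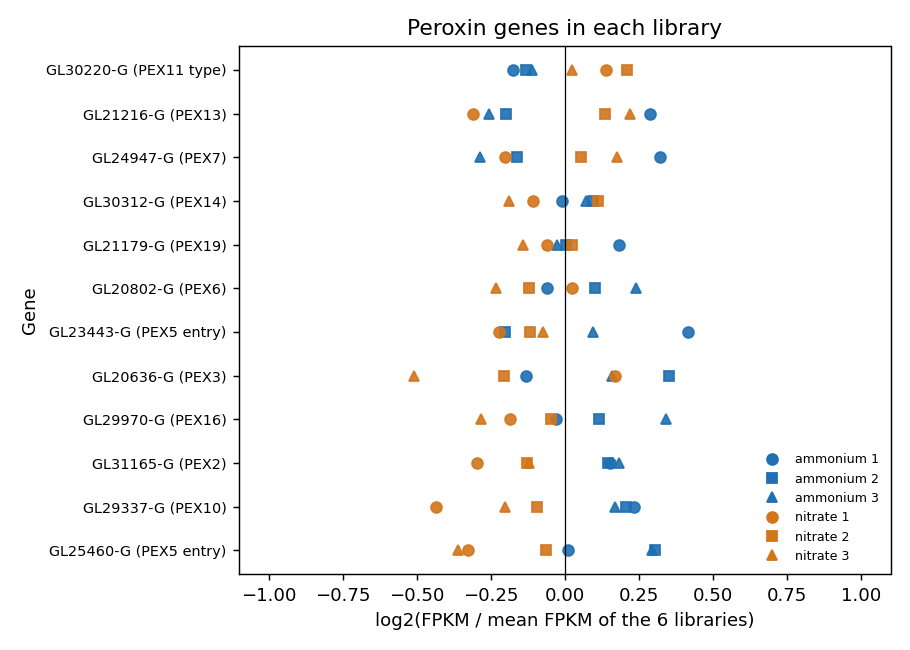
For 12 of the 14 peroxin genes (vertical axis), log2 of FPKM over the mean of the 6 libraries (horizontal axis), with ammonium in blue, nitrate in orange and a symbol per replicate. Genes are ordered by log2 fold change, from -0.47 at the bottom to 0.26 at the top, and the groups are apart in 5 of them.

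Of the 6 peroxisome membrane members, 1 fell and 5 did not pass, where 15.6% of all tested genes were called. GL29265-G, on scaffold 36 at 11536 to 12746, belongs to the MPV17 family of small membrane proteins. It was 21.9, 19.4 and 17.1 FPKM in ammonium and 9.23, 9.52 and 11.5 FPKM in nitrate, well apart. It fell by 0.96 ± 0.18 on the log2 scale (adjusted p = 0.0133, edgeR), a call lost without ammonium replicate 2 (adjusted p = 0.0573) or nitrate replicate 2 (0.0517). The other member of the family, GL30476-G, was 9.32 ± 2.33 and 9.86 ± 2.57 FPKM (adjusted p = 0.876). Outside the KEGG pathways, GL30326-G has the same description and fell from 145 ± 14.3 to 82.5 ± 15.3 FPKM (adjusted p = 0.0266, edgeR). Leaving out ammonium replicate 2, ammonium replicate 3 or nitrate replicate 3 ended its call (highest 0.103), and its model overlaps GL29467-G. The ABC transporter GL30460-G, described as carrying long-chain acyl-CoA into peroxisomes, was 38.4 ± 2.96 and 45.0 ± 3.37 FPKM (adjusted p = 0.337). The carrier GL31198-G was 128, 141 and 129 FPKM in ammonium and 93.7, 104 and 89.7 FPKM in nitrate, without overlap (adjusted p = 0.0761). It passed with DESeq2 (adjusted p = 0.033) and without both end libraries (0.0117). GL30473-G and GL24610-G have no description. They were 125 ± 8.68 and 97.7 ± 5.81 FPKM, and 33.0 ± 6.76 and 22.0 ± 4.78 FPKM (adjusted p = 0.145 and 0.16, and 0.0379 and 0.000591 without both end libraries).

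The remaining 15 members are enzymes of other reactions that KEGG places in the peroxisome or in fatty acid pathways, and 2 of them fell. The share called was 13.3%, against 15.6% of all tested genes. All of it was lower, where 8.13% of all tested genes fell and 7.5% rose. The median log2 fold change of the role was 0.06. GL19327-G is described as a D-aspartate oxidase and carries the KEGG entry of D-amino acid oxidase, an enzyme class that releases ammonia from D-amino acids. Its model is at 217226 to 218524 of scaffold 26. It was 20.6, 20.9 and 11.5 FPKM in ammonium and 4.27, 6.08 and 6.70 FPKM in nitrate. It fell by 1.65 ± 0.27 on the log2 scale (adjusted p = 0.00793, edgeR), also in each of the 6 fits without 1 library (highest adjusted p = 0.0344). The other member of that description, GL24057-G, whose KEGG entry is another, was 14.9 ± 2.80 and 16.8 ± 4.99 FPKM, with overlap (adjusted p = 0.697). GL30084-G, which has that description and is no member, was 9.49 ± 1.58 and 10.0 ± 2.58 FPKM, with overlap (adjusted p = 0.876). Differences between these oxidases were not tested. The reductase GL24906-G fell from 1.35 ± 0.316 to 0.437 ± 0.0866 FPKM (adjusted p = 0.0212). That call was kept without either replicate 1, and any other omission ended it (adjusted p = 0.0531 to 0.0869). Its model overlaps GL24909-G.

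The most abundant member of all was the epoxide hydrolase GL31500-G, which opens epoxides to diols. It was 2625, 2735 and 2261 FPKM in ammonium and 3469, 3414 and 3548 FPKM in nitrate. Every nitrate library was higher, and the log2 fold change of 0.44 ± 0.18 did not pass (adjusted p = 0.14). Alanine-glyoxylate aminotransferase GL21921-G, which makes glycine from glyoxylate, was 394 ± 22.4 and 512 ± 46.7 FPKM, also without overlap (adjusted p = 0.22). The alkyl hydroperoxide reductase GL23044-G, an antioxidant enzyme, was 306 ± 14.9 and 291 ± 32.4 FPKM (adjusted p = 0.756). The other 9 members of this role had adjusted p-values from 0.0623 to 0.936. Of these, the FAD-dependent oxidoreductase GL21566-G passed as higher without nitrate replicate 1 (adjusted p = 0.0405) and without both end libraries (0.00506). The NADH pyrophosphatase GL17615-G passed as lower without nitrate replicate 2 (adjusted p = 0.0363).

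KEGG entries cover 1849 of the 16113 genes, so families were also followed through their KOG descriptions. By words for acyl-CoA, fatty acids, carnitine and peroxisomes, 62 further genes were found, of which 57 were tested, 8 rose, 5 fell and 44 did not pass. The share called over all tested genes was 15.6%, and the median log2 fold change of the 57 was -0.09. Acyl-CoA synthetases moved in both directions. GL21040-G, with a KEGG entry in phenylalanine metabolism, was 16.0, 13.9 and 15.3 FPKM in ammonium and 3.09, 4.02 and 4.11 FPKM in nitrate. It fell by 2.02 ± 0.16 on the log2 scale (adjusted p = 0.000553, edgeR). GL28494-G was 15.9 ± 4.98 FPKM in ammonium and rose to 47.4 ± 8.29 FPKM, by 1.57 ± 0.23 on the log2 scale (adjusted p = 0.00536). GL20510-G, with the KEGG entry of acetyl-CoA synthetase, which turns acetate into acetyl-CoA, was 206, 263 and 164 FPKM in ammonium and 647, 526 and 506 FPKM in nitrate. It rose by 1.40 ± 0.25 on the log2 scale (adjusted p = 0.0108, and 0.0533 without ammonium replicate 3).

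Among the other families, the fatty acid desaturase GL24114-G, with a KEGG entry in sphingolipid metabolism, fell from 117 ± 8.16 to 48.9 ± 2.54 FPKM (adjusted p = 0.00334, edgeR). The peroxisomal phytanoyl-CoA hydroxylase GL25569-G, an enzyme of alpha-oxidation, rose from 36.4 ± 1.96 to 71.0 ± 6.22 FPKM (adjusted p = 0.00547). Both groups were tight and apart, and both calls held without any single library. The NUDIX hydrolase GL21814-G rose from 12.0 ± 1.79 to 23.1 ± 2.91 FPKM (adjusted p = 0.0113). Leaving out ammonium replicate 2, ammonium replicate 3 or nitrate replicate 3 ended that call (highest 0.0585). The racemase type gene GL23693-G was 16.3 ± 1.39 FPKM in ammonium and fell to 8.24 ± 1.56 FPKM (adjusted p = 0.01, which became 0.0507 without nitrate replicate 3). The mitochondrial carnitine-acylcarnitine carrier GL29464-G, which takes carnitine esters into mitochondria, was 82.8 ± 5.02 FPKM in ammonium and fell to 49.4 ± 6.58 FPKM (adjusted p = 0.0168). Its call ended under the same 3 omissions as that of GL21814-G (highest 0.0765), and the other 5 genes of its description did not pass.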

How the data were processed

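RNA from 6 mycelial samples, 3 per nitrogen source, was sequenced. Aligner, counting tool, genome build and use of strand: not given in the sources used here. The authors deposited raw read counts per gene, with TPM and FPKM values that they computed, per the file headers. Tests used the counts, levels are FPKM, and TPM served for sums. Members were picked by KEGG pathway and, without regard to case, by KOG description. Roles were set from both. The members and lists were chosen with earlier results of these data known. Named were all called members, the 3 of highest mean FPKM in each role, and the 8 called family genes of smallest adjusted p. Others were named after their values were seen.

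Counts were tested with edgeR 4.0.16 (R 4.3.3, TMM, filterByExpr, robust glmQLFit, no block, BCV 0.248). Standard errors were derived from F. Alternatives were RLE factors, no filter, a stricter filter (50 counts or more in 3 libraries), DESeq2 1.42.0, limma-trend from limma 3.58.1 on log2(FPKM + 1) and log2(FPKM + 0.1) for genes of at least 1 FPKM in 3 libraries, a replicate block, and leaving libraries out. The edgeR steps were tested on simulated data. A count of 3, the limit that a count of 0 allows, is 0.109 to 0.15 CPM, for counting error only. No sequences were used here, and single values of 2 peroxin genes are not reported here.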

Additional observations from a re-analysis of the deposited data

How the results depend on the processing

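RLE factors, a filter of at least 50 counts and no filter left the counts of members and of all genes within 1.5 times. Leaving out 1 library gave 655 to 1946 called genes (273 to 910 higher, 382 to 1036 lower), 1 to 3 members higher and 2 to 10 lower, and 2 to 6 family genes higher and 2 to 5 lower. The median of the members was then -0.31 to -0.15. Without both end libraries, a fit added after seeing the data, 4898 genes were called (2364 higher, 2534 lower), with 6 members higher, 27 lower, a median of -0.38 and 14 family genes lower. DESeq2 called 4 members higher and 8 family genes lower, and limma called 1 member higher with either pseudocount. The labels do not say whether same-numbered libraries share more than a number. Their deviations from the group means correlated at -0.66, -0.35 and -0.46, and those of other pairs at -0.43 to 0.64. Deviations within a group of 3 libraries sum to 0, so these correlations cannot decide on pairing. With the replicate block 225 genes were called (85 higher, 140 lower), 1 member higher and 0 lower, and 0 family genes higher and 1 lower. At an unadjusted p under 0.05 without the block, 21 members were lower, and DESeq2 called 12 lower. Among named genes, the log2 fold change of GL23180-G ran from -0.044 to 0.14 without single libraries and was -0.12 without both end libraries. That of GL30263-G ran from -0.33 to 0.11 without single libraries and was -0.47 without both end libraries, where it was called lower (adjusted p = 0.0294). The cause was not tested. At 3 libraries a group, smaller differences, such as those of the peroxins, may not be detectable.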

Other observations

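Gene models of acyl-CoA oxidase outside the KEGG pathways lie on scaffold 24, as does the member GL23176-G. GL27882-G, at 146851 to 147228, had counts of 0, 63 and 0 in ammonium replicates 1 to 3 and of 76, 79 and 82 in nitrate replicates 1 to 3. It did not pass (adjusted p = 0.267, edgeR), and it passed without ammonium replicate 2 (adjusted p = 0.00349). The adjoining model GL27885-G, at 147304 to 148243, had a mean of 3.88 ± 0.676 FPKM with ammonium and 5.64 ± 0.28 FPKM with nitrate (adjusted p = 0.167), without zeros. GL27881-G, at 101919 to 103455, was 0.988 ± 0.16 and 1.73 ± 0.239 FPKM (adjusted p = 0.0761, and 0.0425 without both replicates 1), and GL23186-G, at 138148 to 139196, had a count of 0 in every library. A second type of acyl-CoA oxidase, the pristanoyl-CoA oxidase GL21517-G on scaffold 15, rose from 8.25 ± 2.94 to 20.1 ± 4.89 FPKM (adjusted p = 0.033). Leaving out replicate 1 or 3 of either group ended that call (adjusted p = 0.0565 to 0.121), as did leaving out both replicates 1 (0.0962). Another gene of the same description, GL17764-G, was 1.31 ± 0.299 and 1.56 ± 0.40 FPKM, with overlap (adjusted p = 0.595).

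Lists of GO identifiers were added after values had been seen, for genes that are not members. Of 18 tested genes with the identifier for fatty acid biosynthesis, 4 fell and none rose. Besides GL24188-G they were the sterol enzymes GL26052-G and GL23074-G, which carry that identifier too, and GL20908-G, which has no description and was 20.6 ± 2.57 and 12.1 ± 1.48 FPKM (adjusted p = 0.033). Leaving out replicate 2 or 3 of either group ended the last call (adjusted p = 0.091 to 0.123). Of 12 with that for beta-oxidation, 2 rose and none fell, GL21517-G and a very-long-chain acyl-CoA dehydrogenase, GL26552-G. The latter was 98.3 ± 8.29 and 159 ± 6.53 FPKM (adjusted p = 0.032), and each of the 6 omissions of 1 library ended its call (adjusted p = 0.0523 to 0.13). It is 1 of 4 genes of that description. The other 3 did not pass, and their log2 fold changes were below 0. Of 39 with that for the peroxisome, 5 rose and 2 fell. The share called over all tested genes was 15.6%.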
